A study of Homo sapiens with 18 samples.

Results

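The effect of SNRPD3 knockdown on intron usage was measured over all 18 libraries of the series, 12 from cells transfected with either of 2 SNRPD3 siRNAs (SNRPD3-) and 6 from cells given a control siRNA (SNRPD3+). The libraries were chosen by their labels alone. MYCN status entered the comparisons over all libraries as a block, which removes the baseline difference between the statuses. An effect is then an average over MYCN-expressing and MYCN-repressed cells, and a large effect in 1 status alone can carry it. All cells were SHEP.tet21n, a human neuroblastoma line engineered to carry a MYCN cDNA that doxycycline (Dox) shuts off. The MYCN+ groups received the DMSO vehicle and kept expressing the cDNA, and the MYCN- groups received 2 µg/mL Dox. Each status had 3 libraries with control siRNA, 3 with siRNA #1 and 3 with siRNA #2, all groups shared the engineered line and a transfection, and no other line was used. The study describes its replicates as independent biological ones, while the labels only number them.

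SNRPD3 is 1 of the Sm proteins, which encircle the U-rich small nuclear RNAs, so that each RNA and its bound proteins make up a small nuclear ribonucleoprotein (snRNP) of the splicing machinery. The U1 and U2 snRNPs recognise the 5′ and 3′ ends of an intron, and in human genes both ends of an exon are usually recognised together. An exon that is not recognised is joined over, and the intron then removed runs from the exon before it to the exon after it. Such an exon is called a cassette exon, and its loss can shorten a protein or shift its reading frame.

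Intron usage was given as the percent spliced in (PSI), the share of an intron among the introns of a cluster, which are linked by shared splice sites. PSI compares introns with each other and measures neither gene expression nor intron retention, so the depth of SNRPD3 knockdown and the repression of MYCN could not be read from it. Introns of 3 of 8 adrenergic neuroblastoma markers (HAND2, GATA3 and ISL1) and of 7 of 8 mesenchymal markers were listed, all but VIM. The number of reads behind a PSI is unknown, so the error used here is the spread between libraries. PSI was also smoothed so that none is 0 or 1, so a value close to either end may not be a measured level. Strand was not given for the clusters, so overlapping and antisense genes could not be told apart. Exactly repeated values occurred in 31077 of 233650 introns, and in 7822 to 12754 introns per library. A total of 152722 introns in 14169 genes had a mean PSI from 0.01 to 0.99 and were tested, of which 26371 (17.3%) held a repeated value.

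Exon skipping was higher in SNRPD3- cells. For 33492 exons, each between annotated introns with a skipping intron in the same cluster, a skipping share was computed, in which the PSI of the intron that skips the exon is divided by the sum of itself and the average PSI of the introns on either side. The mean skipping share over these exons in MYCN+ cells was 23.9%, 24.1% and 24.3% in the control libraries. It was 25.2%, 25% and 26.9% with siRNA #1, and 25.1%, 24.7% and 26.3% with siRNA #2. In MYCN- cells it was 23.7%, 23.7% and 23.4% in the control libraries, 24.6%, 24.2% and 24.6% with siRNA #1, and 24.3%, 24.0% and 24.4% with siRNA #2. All SNRPD3- libraries lay above all control libraries of their own MYCN status. The difference was 1.10 percentage points (exact two-sided permutation test within MYCN status, p = 0.000567, adjusted p = 0.00227 over 4 measures, where the smallest possible p was 0.000142). It was 1.43 points in MYCN+ cells and 0.760 points in MYCN- cells, and this difference between statuses was not past the threshold (exact permutation test, p = 0.107). Each siRNA alone passed the test, with 1.24 points with siRNA #1 and 0.955 points with siRNA #2 (exact permutation test, p = 0.005 for both). Replicate 3 of both MYCN+/SNRPD3- groups was the highest library of its group, and without these libraries the difference was 0.831 points (exact permutation test, p = 0.00034).

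**Figure D1:**
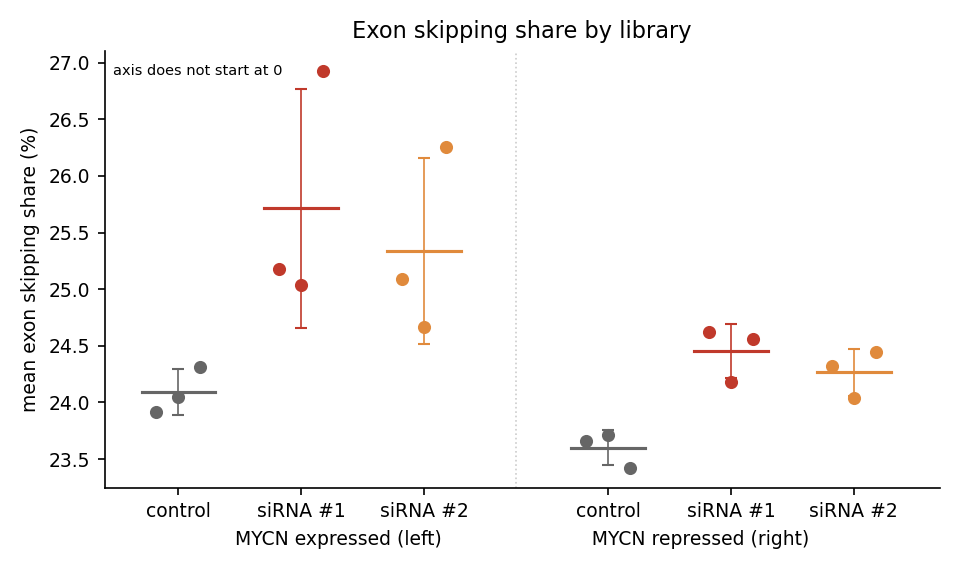
Mean exon skipping share (%, vertical axis) of each of the 18 libraries by group, with horizontal bars for the group mean and error bars for the SD (n = 3). The control libraries sit between 23.4% and 24.3%, and within each MYCN status every SNRPD3- library sits above all 3 control libraries.

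The shift was small per exon and wide in extent. Exons with a mean skipping share from 0.01 to 0.99 over all libraries were tested one by one, 27060 exons in 9651 genes, and their median change was 0.756 percentage points toward skipping (quartiles -0.128 and 2.37), or 0.22 in log2 odds, the log2 ratio of skipping to inclusion on which exons were fitted. The fitted estimate was toward skipping in 71.1% of exons. An unadjusted p under 0.05 was reached by 3881 exons (14.3% of those tested), 3507 toward skipping (13%) and 374 toward inclusion (1.38%). Among the former the median change was 3.21 points (quartiles 1.66 and 6.38). Since the filter averages over more knockdown than control libraries, 626 of the 3507 (17.9%) had a control mean outside its range and were tested only through the knockdown libraries, against 2522 of all 27060 (9.32%). Among the 24121 exons whose mean was in range in SNRPD3- and in SNRPD3+ libraries each, a filter chosen after seeing the data, 69.4% of estimates were toward skipping, with 2866 exons (11.9%) at an unadjusted p under 0.05 toward skipping and 305 (1.26%) toward inclusion. In single libraries, the share of exons above the control mean of their own MYCN status was 54.9% to 71.7% in MYCN+/SNRPD3- and 52.0% to 59.7% in MYCN-/SNRPD3- cells, against 45.6% to 50.7% in control libraries. The same direction was seen in the introns from which the share is computed, which is not separate evidence. Among 17011 tested introns that skip an exon, 68.0% had a higher fitted PSI in SNRPD3- cells, against 41.9% of 51526 introns that only flank such an exon and 49.5% of the 84185 other introns.

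Alternative splice sites were read in the same way. At 13680 pairs of 5′ splice sites at most 100 bases apart, the mean share of the longer intron was 51.3% ± 0.0968 (SD, n = 6) in SNRPD3+ and 50.9% ± 0.298 (SD, n = 12) in SNRPD3- libraries. The SNRPD3- libraries thus differed by -0.372 points (exact permutation test, two-sided, p = 0.00567, adjusted p = 0.0113), that is, toward the shorter intron, by -0.541 points in MYCN+ and by -0.202 points in MYCN- cells. The groups did not overlap in MYCN+ cells. They did in MYCN- cells, where the highest SNRPD3- library (51.330%) lay above the highest control (51.327%). At 20208 pairs of 3′ splice sites the difference was -0.198 points (exact permutation test, p = 0.0244, adjusted p = 0.0325), again with overlap in MYCN- cells. Without MYCN-/SNRPD3+ replicate 2 it was -0.146 points and no longer past the threshold (exact permutation test, p = 0.112). PSI in unannotated introns differed by 0.0723 points (exact permutation test, p = 0.261), so no change in the use of unannotated introns passed the test.

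**Figure D2:**
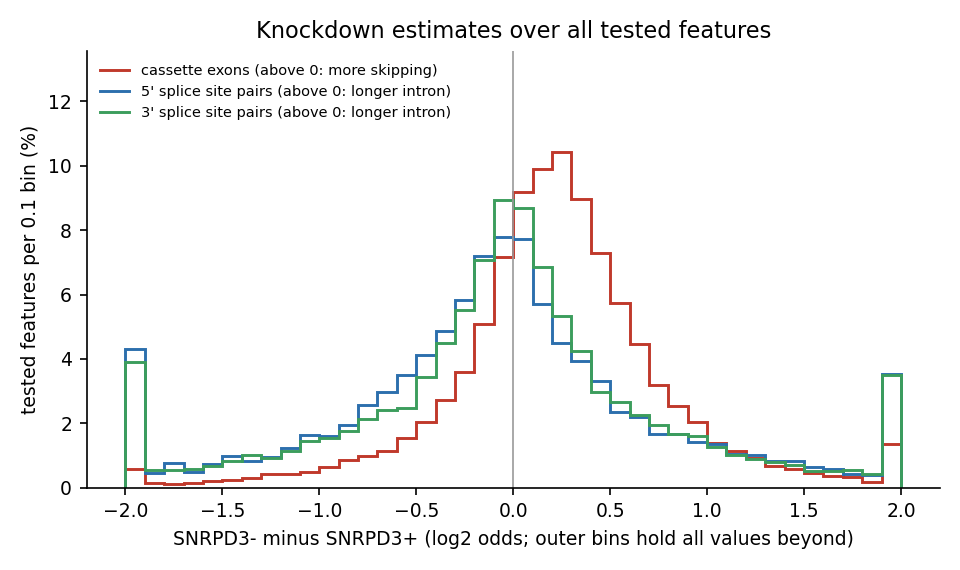
Distribution of the knockdown estimate (SNRPD3- minus SNRPD3+, log2 odds, horizontal axis) over all tested cassette exons, 5′ splice site pairs and 3′ splice site pairs, as the percent of tested features in each bin (vertical axis). The cassette exons have a median of 0.22 and lie to the right of 0, while the pairs of 5′ and 3′ sites have medians of -0.06 and -0.02.

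Single cassette exons were then tested with limma and Benjamini-Hochberg adjustment. At an adjusted p under 0.05, 15 exons were called (0.0554% of those tested), 13 toward skipping (0.048%) and 2 toward inclusion (0.00739%), and at an adjusted p under 0.1 there were 227 (0.839%) and 10 (0.037%). The number called was higher with a replicate block, as given at the end, and it rested on single libraries. It moved by over 1.5 times when any of 14 libraries was left out, to between 0 and 7 for 13 of them and to 33 without MYCN-/SNRPD3- siRNA #2 replicate 2. The 4 libraries without this effect, with 13 to 19 exons called, were MYCN+/SNRPD3- siRNA #1 replicate 2, MYCN+/SNRPD3- siRNA #2 replicates 1 and 2, and MYCN-/SNRPD3- siRNA #1 replicate 1. Without replicate 3 of both MYCN+/SNRPD3- groups, 1 exon was called, and with the filter applied to each arm 3 were called, 2 of them toward skipping. For the 8 exons described next, 152 of 267 results under other settings were no longer past the threshold. None changed sign, but these exons were chosen for groups without overlap in either status. Their sign could therefore hardly change, and its stability is not evidence for the direction.

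Of the 15 called exons, 8 met the stricter conditions of 18 different values for every intron and no overlap of SNRPD3- and SNRPD3+ libraries in either status. All 8 were toward skipping, but MPHOSPH9, RAB18 and ARMCX2 had control means under the filter's limit and were tested only because skipping was higher with knockdown, so their direction was set by the filter, as it was for PTBP2, DUSP11 and a second ARMCX2 exon among the other called exons. The genes do unlike things: PACC1 forms a proton-activated chloride channel, RAB18 and RAB22A are small GTPases of membrane traffic, NAGK phosphorylates N-acetylglucosamine, PPP1R12A targets myosin phosphatase, and MPHOSPH9 is a centriole protein. ARMCX2 is a member of the armadillo repeat family on the X chromosome, and MRPS30-DT is a long noncoding RNA. Most of the coding exons among them are shown because they carry the called changes, with MDM4 exon 6 and CDK2 exon 5, which are described further on. Capitals mark the exon, and lower case the last 12 bases of the intron before it and the first 6 bases of the intron after it, read from hg38 on the strand of the gene.
PACC1 exon 7 (chr1:212375193-212375300, minus strand): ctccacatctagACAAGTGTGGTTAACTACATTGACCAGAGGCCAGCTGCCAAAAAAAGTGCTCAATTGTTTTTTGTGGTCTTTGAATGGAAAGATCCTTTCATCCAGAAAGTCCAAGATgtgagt
MPHOSPH9 exon 20 (chr12:123163014-123163134, minus strand): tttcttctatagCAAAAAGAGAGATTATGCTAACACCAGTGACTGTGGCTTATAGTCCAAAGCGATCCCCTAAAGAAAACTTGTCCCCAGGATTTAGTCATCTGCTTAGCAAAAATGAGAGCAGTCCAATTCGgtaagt
RAB18 exon 6 (chr10:27533928-27533994, plus strand): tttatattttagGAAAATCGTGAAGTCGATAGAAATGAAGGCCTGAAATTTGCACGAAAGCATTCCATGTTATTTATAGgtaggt
NAGK exon 4 (chr2:71071686-71071827, plus strand): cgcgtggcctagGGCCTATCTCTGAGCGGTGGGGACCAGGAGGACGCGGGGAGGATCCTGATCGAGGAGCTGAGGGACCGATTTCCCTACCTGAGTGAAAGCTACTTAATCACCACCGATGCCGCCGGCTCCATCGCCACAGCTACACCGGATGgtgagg
PPP1R12A exon 22 (chr12:79786374-79786478, minus strand): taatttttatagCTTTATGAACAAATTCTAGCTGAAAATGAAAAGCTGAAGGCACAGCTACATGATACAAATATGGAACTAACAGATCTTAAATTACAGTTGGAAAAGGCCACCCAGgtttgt
MDM4 exon 6 (chr1:204537430-204537497, plus strand): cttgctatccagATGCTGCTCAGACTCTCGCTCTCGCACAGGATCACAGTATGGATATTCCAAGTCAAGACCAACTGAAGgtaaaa
CDK2 exon 5 (chr12:55969475-55969576, plus strand): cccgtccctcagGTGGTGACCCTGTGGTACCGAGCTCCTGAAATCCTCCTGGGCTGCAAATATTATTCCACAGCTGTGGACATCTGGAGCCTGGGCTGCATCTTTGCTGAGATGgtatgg
The exons were short, 67 to 142 bases, and the lengths of 3 of the 7 shown (PACC1, PPP1R12A and CDK2) are multiples of 3, so that joining over them keeps the reading frame.

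PACC1 exon 7 of 8 was skipped at 6.65%, 7.80% and 8.34% in the MYCN+ and 4.27%, 7.84% and 8.42% in the MYCN- control libraries. With SNRPD3 siRNA the lowest, median and highest values were 14.5%, 19.2% and 21.9% in MYCN+ and 10.2%, 13.2% and 14.8% in MYCN- cells, so every knockdown library lay above the controls of its status. The change was 8.44 points, or 1.15 ± 0.17 log2 odds (SE; limma, adjusted p = 0.038), and both siRNAs gave almost the same size, 8.46 and 8.42 points. MPHOSPH9 exon 20 of 24 went from 0.724%, 1.02% and 1.33% to 1.41%, 5.10% and 7.36% (lowest, median, highest) in MYCN+ cells. In MYCN- cells it went from 0.0235%, 0.0248% and 0.0284%, values so low that smoothing may have set them, to 1.48%, 2.51% and 4.62%. The lowest MYCN+/SNRPD3- library was only just above the highest control, and the change was 3.27 points (1.67 ± 0.25 log2 odds; limma, adjusted p = 0.038).

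Skipping rose in both RAB GTPases. A coding exon of RAB22A was skipped at 2.93%, 3.21% and 3.81% in the MYCN+ and 1.99%, 2.82% and 2.89% in the MYCN- control libraries. With SNRPD3 siRNA it was 5.6%, 7.35% and 7.94% (lowest, median, highest) in MYCN+ and 3.42%, 4.48% and 6.19% in MYCN- cells, a rise of 2.95 points (0.83 ± 0.14 log2 odds; limma, adjusted p = 0.0386). RAB18 exon 6 of 7 was at 0.717%, 1.18% and 1.66% in the MYCN+ and 0.359%, 0.530% and 0.758% in the MYCN- control libraries. It was at 2.43%, 4.25% and 8.03% (lowest, median, highest) in MYCN+ and 1.33%, 2.11% and 3.04% in MYCN- knockdown cells, a rise of 2.67 points (1.24 ± 0.20 log2 odds; limma, adjusted p = 0.0386). In both genes every SNRPD3- library exceeded the controls of its status, and the included form remained the main one in every library.

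NAGK exon 4 of 10 was skipped at 0.693%, 0.847% and 1.57% in the MYCN+ and 0.991%, 1.24% and 1.94% in the MYCN- control libraries, against 3.22%, 4.87% and 6.80% and 2.24%, 2.78% and 3.96% (lowest, median, highest) with SNRPD3 siRNA. The rise was 2.74 points (1.17 ± 0.20 log2 odds; limma, adjusted p = 0.0386). PPP1R12A exon 22 of 25 was at 1.21%, 1.23% and 1.71% in the MYCN+ and 0.756%, 0.841% and 1.73% in the MYCN- control libraries, against 3.56%, 4.44% and 7.42% and 1.93%, 2.33% and 3.18% with SNRPD3 siRNA. Here the rise was 2.45 points (1.04 ± 0.18 log2 odds; limma, adjusted p = 0.0386). Neither exon's groups overlapped, and their skipped form stayed the minor one throughout.

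The largest changes were in exons outside coding sequence. In MRPS30-DT (chr5:44777037-44777101, minus strand) the skipping share was 49.5%, 58.8% and 62.1% in the MYCN+ and 34.1%, 48.6% and 70.8% in the MYCN- control libraries. It was 79.5%, 84.2% and 94.5% (lowest, median, highest) in MYCN+ and 75.6%, 85.2% and 93.5% in MYCN- knockdown cells, a rise of 31.4 points (2.37 ± 0.39 log2 odds; limma, adjusted p = 0.0386). In ARMCX2 (chrX:101659076-101659136, minus strand) the exon was almost always included in control libraries, at 0.560%, 0.704% and 2.8% in MYCN+ and 0.384%, 0.604% and 0.675% in MYCN- cells. With knockdown the share spread widely, 12.1%, 35.2% and 72.3% in MYCN+ and 0.809%, 22.1% and 33.7% in MYCN- cells, and the mean rise was 29.1 points (4.24 ± 0.70 log2 odds; limma, adjusted p = 0.0386). The lowest MYCN- library, at 0.809%, was barely above its controls. A second, overlapping ARMCX2 exon that shares a splice site was also called, with a rise of 14.9 points.

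**Figure D3:**
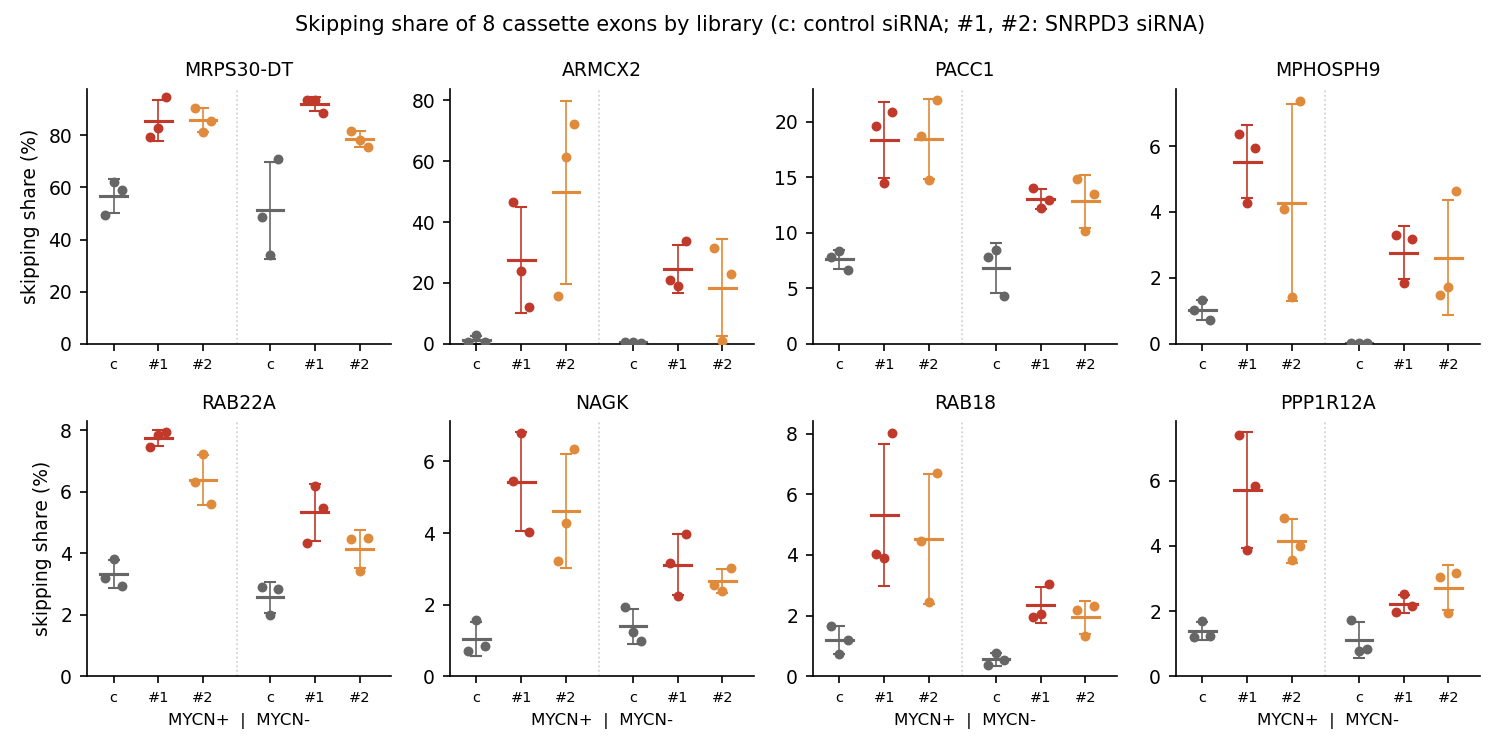
Skipping share (%, vertical axis) of the 8 cassette exons in each library, for control siRNA (c), SNRPD3 siRNA #1 and siRNA #2, with MYCN expressed at left and repressed at right of each panel. Points are libraries, horizontal bars are means and error bars the SD (n = 3). No SNRPD3- library overlaps the controls of its status, and ARMCX2 shows the widest spread, from 0.809% to 72.3%.

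The other called exons were named after their values were seen, since they overlapped between groups or held repeated values. PTBP2, the neuronal relative of the splicing repressor PTBP1, had exon 13 of 14 skipped at 0.0445%, 0.0446% and 2.33% in MYCN+ control libraries and 1.61%, 5.56% and 11.1% (lowest, median, highest) with knockdown. In MYCN- cells the control libraries were at 0.0403% to 0.0696% and the knockdown libraries at 1.71% to 11%, and the rise over both was 5.01 points (2.23 ± 0.38 log2 odds; limma, adjusted p = 0.0386). Skipping also rose for NME7 exon 4 of 12, by 3.01 points, and DUSP11 exon 8 of 9, by 1.89 points (limma, adjusted p = 0.0386 for both). NME7 belongs to the gamma-tubulin ring complex, and DUSP11 is a phosphatase that acts on RNA. LRRC37B rose by 16.1 points (limma, adjusted p = 0.0487), but it has near-identical copies between which reads can be split, so its value is uncertain.

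Only 2 called exons went toward inclusion. In POT1-AS1, an antisense RNA whose reads cannot be told apart from those of POT1 here, the skipping share was 99.7%, 99.7% and 99.8% in the MYCN+ and 85.1%, 99.5% and 99.7% in the MYCN- control libraries. It was 63.9%, 88.6% and 92.7% in MYCN+ and 56.4%, 79.2% and 87.8% in MYCN- knockdown cells (lowest, median, highest), a mean change of -17.8 points (limma, adjusted p = 0.038). In ERBB2, a receptor tyrosine kinase, an exon absent from the canonical transcript was skipped at 8.08% to 10.8% in MYCN+ and 6.56% to 8.79% in MYCN- control libraries. With knockdown it was at 0.156%, 0.180% and 8.41% (lowest, median, highest) in MYCN+ and 0.101% to 0.233% in MYCN- cells, a change of -7.39 points (limma, adjusted p = 0.0386), in which 1 MYCN+ library lay among the controls.

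Among pairs of splice sites, 2 pairs at 5′ ends were called (0.0188% of the 10638 tested) and 0 pairs at 3′ ends (0.0% of the 14440 tested, limma, with 763 pairs, 5.28%, at an unadjusted p under 0.05). The unnamed gene ENSG00000290927 (chr16:31705995-31706420, plus strand) has 5′ sites 40 bases apart, and the longer intron took 16%, 24.6% and 47.8% in the MYCN+ and 35.7%, 47.5% and 47.9% in the MYCN- control libraries. It took 0.447%, 0.650% and 1.56% in MYCN+ and 0.337%, 0.561% and 0.649% in MYCN- knockdown cells (lowest, median, highest). The share of the longer intron fell by 35.9 points (-5.09 ± 0.29 log2 odds; limma, adjusted p = 5.92e-08), and the call held in every alternative tried and without any single library. In TMCO4 (chr1:19790049-19798136, minus strand, sites 66 bases apart) the longer intron took 79.6%, 82.6% and 99.8% in MYCN+ and 85.7%, 86.2% and 87.9% in MYCN- control libraries, and 98.7% to 99.8% in all knockdown libraries. The rise was 12.6 points (limma, adjusted p = 0.0459), but the groups overlapped in MYCN+ cells, and the call was lost without any library other than MYCN+/SNRPD3+ replicate 2, the control library at 99.8%.

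No single intron was called by limma at an adjusted p under 0.05 (0 of 152722, 0.0%). An unadjusted p under 0.05 was reached by 11992 introns (7.85%), 6356 with higher (4.16%) and 5636 with lower PSI (3.69%), and an adjusted p under 0.1 by 50 (0.0327%). The 0 became 2 without MYCN+/SNRPD3+ replicate 1, MYCN+/SNRPD3+ replicate 3 or MYCN-/SNRPD3+ replicate 1, 3 without MYCN+/SNRPD3- siRNA #1 replicate 3, and 1 without MYCN-/SNRPD3- siRNA #1 replicate 2 or siRNA #2 replicate 2. The introns nearest the threshold, named after their values were seen, include splicing and cell cycle genes. An intron of SKP2, the substrate receptor of a ubiquitin ligase that degrades cell cycle inhibitors (chr5:36177293-36183839), had a PSI of 30.3%, 31.4% and 33.6% in MYCN+ and 23.1%, 25.4% and 27.7% in MYCN- control libraries. With knockdown its PSI was 41.2%, 44.6% and 50.0% in MYCN+ and 29.9%, 40.0% and 46.1% in MYCN- cells (lowest, median, highest). These groups did not overlap in either status, and the mean difference was 14.1 points (0.88 ± 0.13 log2 odds; limma, adjusted p = 0.072). Others at an adjusted p under 0.1 lay in the transcription factor genes ATF2 and USF1, the nuclear matrix protein MATR3, the branch point binding protein SF1 and the condensin subunit SMC4.

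Introns of BIRC5 and CDK10, genes that the study followed, were read by the same fit. The study reported exon skipping in BIRC5 and intron retention in CDK10. It compared MYCN-expressing knockdown cells with MYCN-repressed control cells. That comparison was not run here, where knockdown was set against control within each status. PSI also does not measure retention, which leaves the CDK10 event unread. With the study's comparison not run, the values below do not decide on the events that it reported. BIRC5 encodes survivin, an inhibitor of apoptosis that also serves in chromosome segregation. Its intron with the smallest p (chr17:78214790-78223464) had a PSI of 3.37%, 3.87% and 4.11% in MYCN+ and 3.06%, 4.29% and 4.79% in MYCN- control libraries, and 3.75%, 5.13% and 10.1% and 4.23%, 5.39% and 5.71% with knockdown (lowest, median, highest). These ranges overlapped in both statuses, and the difference of 1.63 points did not pass the test (0.42 ± 0.15 log2 odds; limma, adjusted p = 0.483). This intron spans the BIRC5 exon at chr17:78222828-78222992 and the whole intron before it, so its PSI does read skipping in BIRC5. Whether it is the junction of the exon skipping that the study reported was not checked. In CDK10, a cyclin-dependent kinase, the intron with the smallest p (chr16:89687816-89690552) had a PSI of 0.906%, 1.09% and 1.65% in MYCN+ and 0.376%, 0.781% and 1.27% in MYCN- control libraries. With knockdown it was 1.16%, 1.83% and 2.46% in MYCN+ and 0.552%, 1.31% and 2.23% in MYCN- cells, again with overlap, and the difference of 0.612 points did not pass (limma, adjusted p = 0.652). In SNRPD3 itself, 5 introns were tested and 0 called by limma, with 1 at an unadjusted p under 0.05. That unannotated intron (chr22:24557801-24571915) took 1.22%, 2.60% and 6.81% in the knockdown and 1.42%, 1.53% and 1.94% in the control libraries (lowest, median, highest over both statuses), and the adjusted p was 0.636. MYCN had 0 introns in the table.

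Lists of genes by function were then read for their cassette exons, each against the 13% of all tested exons that reached an unadjusted p under 0.05 toward skipping and the 71.1% with an estimate in that direction. Of 302 exons of cell cycle and mitosis genes, 92 (30.5%) reached that p toward skipping and 4 toward inclusion, and 82.8% of the estimates were toward skipping. Of 67 exons of hnRNP genes, whose products bind nascent RNA and often repress exons, 21 (31.3%) were toward skipping and 0 toward inclusion. The 1 called exon, that of PTBP2, was tested only through the knockdown libraries and overlapped between groups in MYCN+ cells. Of 115 exons of genes for U2, tri-snRNP and other spliceosome components, 35 (30.4%) were toward skipping and 3 toward inclusion. Genes of DNA repair and checkpoints had 65 of 393 (16.5%) and 3, nearer to the background. The median estimates of these lists, in the order given, were 0.26, 0.27, 0.22 and 0.21 log2 odds, against 0.22 over all exons. The size of the shift thus differed from the background less than the share under that p did.

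The lists closest to SNRPD3 in function held few exons. Of 20 exons of Sm, LSm and snRNP protein genes, 4 were toward skipping and 1 toward inclusion, and of 45 exons of snRNP assembly genes, 8 and 1. SR protein genes, which mostly favour exon inclusion, had 6 and 2 of 33, the kinases that phosphorylate them 2 and 1 of 39, and nonsense-mediated decay genes 9 and 0 of 42. Apoptosis genes had 12 and 0 of 85, with 87.1% of estimates toward skipping, the highest share among the lists. Genes reported elsewhere as targets of Sm, PRMT5 or spliceosome loss had 20 (28.2%) and 2 of 71. The median estimate ranged from 0.08 log2 odds for snRNP assembly to 0.31 for nonsense-mediated decay, against 0.22 over all exons. These counts are descriptions: exons of 1 gene share reads, and no test of a list was made.

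In 22 listed genes, an exon with 18 different values separated knockdown from control libraries without overlap in both statuses, in 20 toward skipping and in 2 toward inclusion. Over all tested exons, with repeated values allowed, this separation held for 194 (0.717%), 192 toward skipping (0.71%) and 2 toward inclusion (0.00739%). With 18 different values required, it held for 191 toward skipping. The 22 count genes with 1 exon each, so they are not a share to set beside these. None of the 22 was called, and they were named after their values were seen. MDM4 restrains p53, and loss of its exon 6 gives the short form MDM4-S. That exon was skipped at 31.2%, 32.8% and 37.4% in MYCN+ and 27.6%, 30.9% and 36.2% in MYCN- control libraries. With knockdown the values were 43.1%, 51.7% and 67.2% in MYCN+ and 39.1%, 45.1% and 52.2% in MYCN- cells (lowest, median, highest), a difference of 16.4 points (0.98 ± 0.19 log2 odds; limma, adjusted p = 0.0641). The lowest knockdown library of either status, at 39.1%, lay above the highest control library, at 37.4%.

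CDK2 exon 5 of 7 lies in the kinase that drives entry into S phase. It was skipped at 17.7%, 17.9% and 17.9% in MYCN+ and 13%, 13.7% and 14.5% in MYCN- control libraries, and at 21.9%, 24.6% and 32% and 14.7%, 21.4% and 23.6% with knockdown (limma, 7.23 points, adjusted p = 0.0845). EXO1, a nuclease of DNA repair, had an exon outside coding sequence at 43.8%, 44.5% and 49.0% in MYCN+ and 31.8%, 32% and 32.1% in MYCN- control libraries. With knockdown it was at 56.0%, 61.1% and 77.7% and at 40.0%, 53.3% and 61.7% (limma, 18.9 points, adjusted p = 0.0739). In both genes the knockdown libraries spread more widely than the controls, and the lowest MYCN- knockdown value of CDK2, 14.7%, was barely above the highest control, 14.5%. HNRNPA2B1, an hnRNP, had an exon at 38.8%, 49.2% and 50.0% in MYCN+ and 40.5%, 46.3% and 46.6% in MYCN- control libraries, and at 53.2%, 61.9% and 75.2% and 47.3%, 57.1% and 66.4% with knockdown (limma, 14.8 points, adjusted p = 0.116).

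Of the rest, the dimerisation partner TFDP1 of E2F factors (11.2 points), the cohesin subunit STAG1 (7.34) and the recombination protein XRCC2 (6.71) had mean differences over 6 points. The others given here toward skipping were between 0.417 points in BIRC5 and 5.04 points in ANLN. Toward inclusion were PARP2 at -1.12 points and SF3B3, a subunit of the U2 snRNP, at -3.89 points (limma, adjusted p = 0.0918 and 0.127).

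**Figure D4:**
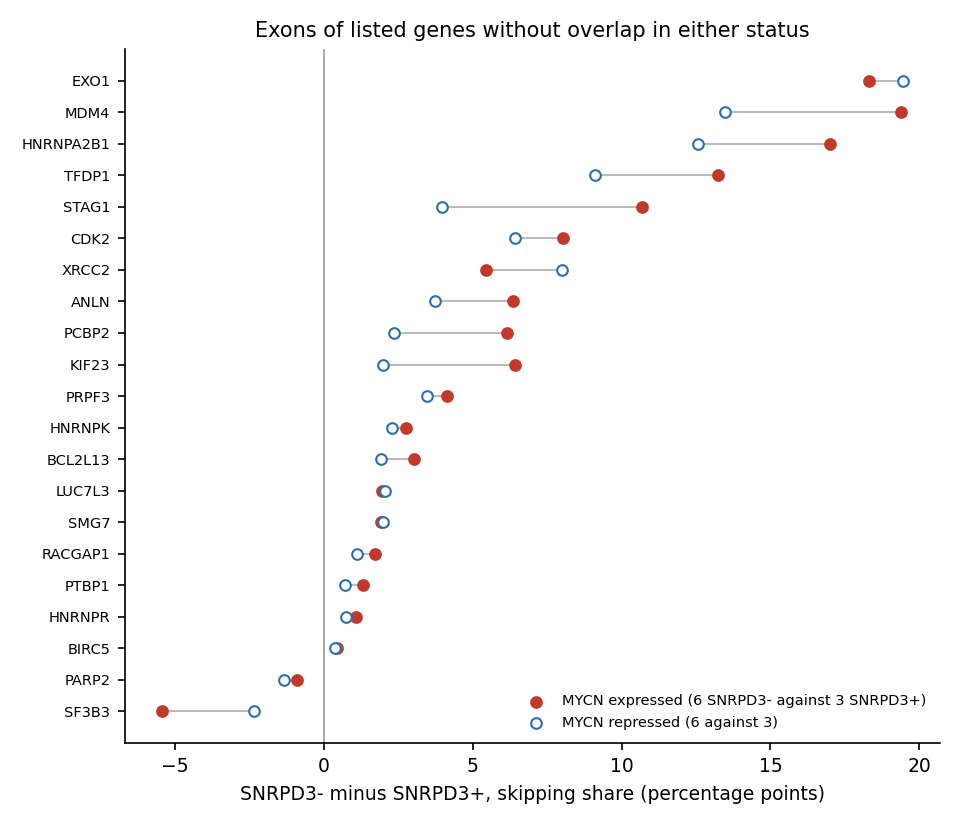
Difference in skipping share (SNRPD3- minus SNRPD3+, percentage points, horizontal axis) for exons of listed genes without overlap of libraries in either status, with MYCN expressed (filled) and repressed (open). The differences reach 19.4 points in EXO1 and MDM4, and only PARP2 and SF3B3 lie to the left of 0. The BIRC5 exon shown is absent from the canonical transcript.

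The knockdown effect was compared between MYCN statuses, which have separate control libraries. Of the 1325 exons (4.9% of those tested) at an unadjusted p under 0.05 toward skipping in MYCN- cells, 80.5% had an estimate toward skipping in MYCN+ cells, against 70.2% of all exons, and 27.4% also had a p under 0.05 in that direction, against 10.7%. Of the 2901 such exons of MYCN+ cells (10.7%), 78.5% were toward skipping in MYCN- cells, against 63.2% of all, and 12.5% passed there, against 4.90%. Of the 338 exons toward inclusion in MYCN- cells (1.25%), 49.7% had an estimate toward inclusion in MYCN+ cells, against 29.8% of all. Across all exons the estimates of the statuses had a Pearson r of 0.09 and a Spearman rho of 0.13, over exons that are not independent of each other. The introns without regard to exons gave a like picture. Of 3549 introns (2.32%) higher in MYCN- cells at an unadjusted p under 0.05, 65.7% were higher in MYCN+ cells, against 49.1% of all introns, and of 3620 lower ones (2.37%) 62.3% were lower, against 50.9%.

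Within a status, 14 exons (0.0517%) were called in MYCN+ and 3 (0.0111%) in MYCN- cells by limma, with 30 introns (0.0196%) and 21 introns (0.0138%), and the median change over all exons was 1.03 and 0.469 points. The difference between statuses was tested by an interaction term, which called 2 exons (0.00739%) and 27 introns (0.0177%), so for nearly all exons a difference between the statuses did not pass the test. A direct comparison of siRNA #2 with siRNA #1 called 8 exons (0.0296%) and 28 introns (0.0183%). Over all exons, the median change was 0.821 points with siRNA #1 and 0.637 points with siRNA #2, and these values share the same control libraries.

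The make-up of the exons is given as a description. The median length was 107 bases for exons at an unadjusted p under 0.05 toward skipping, 138.5 bases for those toward inclusion and 117 bases for all tested exons. In 5 groups of 5412 exons ordered by length, the share with an estimate toward skipping went from 74.5% in the shortest (median 57 bases) to 64.3% in the longest (median 223 bases). The score of the 3′ splice site, a sum of log2 odds over positions from a model of 95407 annotated sites, was 9.58 in exons toward skipping, 8.33 in those toward inclusion and 9.09 in all. The share toward skipping was 66.5% in the group with the weakest 3′ sites and 74.4% in that with the strongest. For the 5′ splice site the medians were 7.54, 7.88 and 7.85, and the share across its 5 groups went up and down between 68.9% and 73.2%. Exons before the shortest downstream introns (median 257 bases) were toward skipping in 66.3%, and the other 4 groups in 71.2% to 73.5%. Coding exons were toward skipping in 73.1% and others in 67.3%, and exons with a length that is a multiple of 3 in 72.2%, against 70.3% of the rest. Ordered by their mean skipping share over all libraries, 71.7% of the exons in the lowest group and 68.9% in the highest were toward skipping.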

How the data were processed

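Polyadenylated RNA of 18 libraries was sequenced as stranded pairs. The authors aligned reads to hg38 (the submitters' processing notes name STAR 2.5.0a and SAMtools 1.3.1) and grouped introns into clusters by their leafcutter workflow. PSI was deposited as a fraction, the part of a cluster that an intron takes, smoothed so that none is 0 or 1. The authors' own deposited comparisons, a p-value adjusted as FDR per cluster and a signed difference of PSI for 15 pairs of groups, were not used. All PSI columns matched a library by name, and depth is unknown.

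Introns were annotated with GENCODE release 44, not the study's release. Log2((PSI + 0.01)/(1 - PSI + 0.01)) was fitted with limma 3.58.1 (R 4.3.3), treatment as a block, and adjusted by Benjamini-Hochberg at 0.05 over all introns, exons or pairs of splice sites. Contrasts within a MYCN status, interactions and siRNA #2 minus siRNA #1 came from a fit of 6 group means. Library means were compared by exact permutation within treatment (Python 3.11.15, scipy 1.17.1). Members and gene lists were chosen with earlier results of these data known. Named exons were called, held 18 different values and did not overlap in either status, and the BIRC5 and CDK10 introns with the smallest p were added; others were named after their values were seen. In simulated data, shifts of 0.5, 1 and 2 log2 odds in 200 of 27060 exons were called in 0%, 23% and 55%. Alternatives covered scale, offsets, PSI filters, group means, the replicate block, thresholds, repeated values, library weights, each siRNA alone and each library left out. Leaving out replicate 3 of both MYCN+/SNRPD3- groups, and a filter on the mean share in each arm, were added after seeing the data. A few results for single items are not reported here.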

Additional observations from a re-analysis of the deposited data

Results flagged for a closer look

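Among 94 groups of 6 knockdown libraries that were examined, 5 held a library far from the other 5, and chance sets apart about 1 in 20 groups (5%). PSI in unannotated introns was highest in MYCN+/SNRPD3- siRNA #2 replicate 3, at 11.7%. The PTBP2 exon was skipped most in MYCN-/SNRPD3- siRNA #2 replicate 1, at 11%. The longer intron of ENSG00000290927 stood at 1.56% in MYCN+/SNRPD3- siRNA #2 replicate 2, above the other MYCN+ knockdown libraries, and that of TMCO4 at 98.7% in MYCN+/SNRPD3- siRNA #1 replicate 2, below them. The SF3B3 exon was skipped least in MYCN+/SNRPD3- siRNA #2 replicate 3, at 81.7%.

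The knockdown effect differed between MYCN statuses by limma's interaction term in 27 introns and 2 exons. An exon of GSAP, gamma-secretase activating protein (chr7:77312101-77312202, minus strand, exon 29 of 31), was skipped at 4.31%, 5.58% and 12.4% in MYCN- control libraries and at 0.0685%, 0.0924% and 0.146% (lowest, median, highest) with knockdown. In MYCN+ cells all libraries lay between 0.141% and 0.288%, and the interaction had an adjusted p of 0.0298 (limma). An exon of SYVN1, a ubiquitin ligase of the endoplasmic reticulum (chr11:65130002-65130172, minus strand), was skipped at 0.0591%, 4.23% and 11.7% (lowest, median, highest) in MYCN+ knockdown libraries. This median is a midpoint between libraries of the 2 siRNAs, not the value of a library. Elsewhere the exon was skipped at no more than 0.0974% (limma interaction, adjusted p = 0.0298). Its mean difference was 0.0124 points with siRNA #1 and 4.76 points with siRNA #2, so the change came from 1 of the siRNAs.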

How the results depend on the processing

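The direction of the shift held throughout. The share of exons with an estimate toward skipping (71.1%) was 69.0% to 71.7% without any single library, and the lowest value under any other alternative was 67.0%, without replicate 3 of both MYCN+/SNRPD3- groups. The mean skipping share rose by 0.957 to 1.18 points without any single library, by 0.831 points without those libraries, by 0.938 points as the median share and by 1.75 points with every exon set of a cluster used, and neither measure changed side under any alternative run. The change at 5′ splice sites was -0.411 to -0.334 points without any single library and -0.628 points with the median share. PSI in unannotated introns differed by 0.0257 to 0.118 points and 3′ splice sites by -0.235 to -0.146 points without any single library, and the latter lost its call with siRNA #2 alone (-0.161 points) and with the median share (-0.587 points). Counts of calls depended on the setting, and the cause was not tested.

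For introns over all libraries (0 called by limma, 11992 at an unadjusted p under 0.05), 29 were called with an offset of 0.001, 1 without the PSI filter, 5 with a mean PSI from 0.05 to 0.95, 37 from 6 group means, 8 and 7 with siRNA #1 or #2 alone, 3 without replicate 3 of both MYCN+/SNRPD3- groups (the pair), and 0 to 3 without any single library. For cassette exons (15 called) the count was 32 on PSI itself, 2 with a mean PSI from 0.05 to 0.95, 0 at an adjusted p under 0.01, 8 with a minimum difference of 5 points, 47 with library weights, 3 with the filter applied to each arm, 2 with siRNA #2 alone, 1 without the pair, and 0 to 33 without any single library. For 5′ pairs (2 called) it was 1 on PSI itself, with an offset of 0.001, with no PSI filter or the stricter one, from 6 group means, at 0.01 and with siRNA #2 alone, and 1 to 3 without any single library. For 3′ pairs (0 called by limma) it was 2 on PSI itself, 1 from group means, with siRNA #2 alone and without the pair, and 0 to 1 without any single library.

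Within MYCN+ cells, introns called (30) became 4 on PSI itself, 15 with an offset of 0.05, 53 without a filter, 8 with the stricter filter, 172 with only the groups compared, 12 at 0.01, 18 with trend and robust options, 79 and 93 with siRNA #1 or #2, 62 without the pair, and 20 to 58 without any single library. Exons (14) became 4 with an offset of 0.05, 4 with the stricter filter, 2 at 0.01, 8 with a minimum difference, 8 with trend and robust options, 30 with siRNA #1, 9 without the pair, and 2 to 32 without any single library. Within MYCN- cells, introns (21) became 38 without a filter, 2 with the stricter filter, 156 with only the groups compared, 12 with 18 different values, 72 and 96 with siRNA #1 or #2, 39 without the pair, and 22 to 48 without any single library. Exons (3) became 0 on PSI itself, 9 with an offset of 0.001, 0 with the stricter filter, 25 with only the groups compared, 7 with library weights, 18 and 10 with siRNA #1 or #2, 5 without the pair, and 3 to 8 without any single library.

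Introns with an interaction (27) became 7 on PSI itself, 1 with the stricter filter, 17 at 0.01, 14 with 18 different values, 95 and 90 with siRNA #1 or #2, 52 without the pair, and 27 to 51 without any single library. Exons with an interaction (2) became 0 on PSI itself, with an offset of 0.05, with the stricter filter, at 0.01 and with trend and robust options, 8 with an offset of 0.001, 1 with a minimum difference, 19 and 17 with siRNA #1 or #2, 5 without the pair, and 0 to 8 without any single library. With siRNA #1 alone the SYVN1 interaction changed sign to -0.0027 log2 odds (limma, adjusted p = 0.999). Introns that differed between siRNAs (28) became 11 on PSI itself, 44 and 16 with offsets of 0.001 and 0.05, 10 with the stricter filter, 59 with only the groups compared, 15 at 0.01, 68 without the pair, and 27 to 53 without any single library. Exons that differed (8) became 3 on PSI itself, 0 with the stricter filter, 18 with only the groups compared, 4 at 0.01, 4 with a minimum difference, 13 without the pair, and 4 to 19 without any single library.

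The main fit did not take the replicate numbers as pairs. Deviations of same-numbered libraries from their group means had a mean correlation of 0.0139 over 45 pairs (-0.0342 to 0.0758). The 18 such pairs that also shared MYCN status were all above 0 (mean 0.0328, 0.00103 to 0.0758), against a mean of -0.0164 over 36 pairs of that kind with different numbers, and 15 of 18 libraries correlated best with their own number. Same-numbered libraries of 1 status thus resembled each other slightly, which the main fit left out. With the replicate block, 27 introns, 124 cassette exons and 1 pair of 5′ sites were called over all libraries, 17 introns and 9 exons in MYCN+ cells, 0 exons for the interaction and 4 exons between siRNAs. With the replicate block within MYCN status there were 63 exons and 1 pair of 5′ sites over all libraries, 15 introns and 5 exons in MYCN+ cells, 0 exons for the interaction, and 16 introns and 4 exons between siRNAs. The other counts stayed within 1.5 times under both blocks.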
